A study of Mus musculus with 10 samples.

Results

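Mitochondrial ribosomal proteins are encoded in the nucleus by the Mrpl genes (large subunit) and the Mrps genes (small subunit, with a few exceptions given below). They were taken from the table by symbol, as Mrpl or Mrps followed by digits and at most 1 letter, with 10 or more normalized counts in at least 5 of 10 libraries. All 78 symbols that matched the pattern passed this filter, out of 16865 genes listed and 13567 tested, so no member was lost to low values. The lowest value of any member in any library was 276 and the highest 5449 normalized counts.

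RNA was sequenced in bulk from 10 leukemic spleens of C57BL/6 mice that had been irradiated below the lethal dose and had received T cell acute lymphoblastic leukemia (T-ALL) by vein. The leukemias of both groups carried Sirt1 in a form that tamoxifen can delete. Sirt1 encodes an NAD-dependent protein deacetylase. The control group (5 libraries) was given corn oil, labelled as the vehicle. The Sirt1 deleted group (5 libraries) was given 3 mg of tamoxifen per mouse in corn oil, into the peritoneum. No group received tamoxifen without the deletion, so the drug and the deletion cannot be told apart. The labels give neither the Cre driver, nor the age of the mice, nor how many leukemias were used, and a p-value here measures only how far these samples spread, which may be technical. In bulk spleen, fewer cells of a type and less RNA per cell cannot be told apart.

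The mitochondrial ribosome, or mitoribosome, translates the few messages of the mitochondrial genome, which encode core subunits of the respiratory chain and of ATP synthase. It descends from a bacterial ribosome, has lost much ribosomal RNA and has gained proteins that bacteria lack. All of its proteins are made in the cytosol and imported. Their genes are housekeeping genes, often with compact promoters that bind NRF1, ETS-family factors such as GABPA, and YY1, and MYC is known to raise mitochondrial biogenesis.

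Sirt1 lay between 710 and 1071 normalized counts in the Sirt1 deleted libraries and between 1126 and 1348 in the controls (log2 difference -0.44, exact permutation p = 0.00794, two-sided). The columns summed to between 33.6 and 34.8 M normalized counts, and the step between low values gave an approximate depth of 21.2 to 44.4 M reads per library. Differences between libraries followed transcript length and GC content. Per doubling of length, genes deviated by 0.0031 to 0.125 (log2) in the controls and by -0.201 to -0.0186 in the Sirt1 deleted libraries (exact permutation p = 0.00794). Slopes on GC content (log2 per unit of GC fraction) ran from -1.58 to -0.157 in the controls. In the Sirt1 deleted libraries they ran from -0.200 to 2.05, overlapping the controls (exact permutation p = 0.0159). Some marker genes of other spleen cells also differed. Calls in brackets are by limma at an adjusted p of 0.05, by which 14.5% of all tested genes were higher and 17.5% lower. Summed over their marker lists, B cell genes held 325 to 420 normalized counts in controls and 388 to 604 after deletion (3 of 11 tested higher, 0 lower), and macrophage genes 11279 to 16354 and 6982 to 10557 (1 of 14 higher, 7 lower). Of the B cell markers, Ebf1 was listed at 0 in at least 1 library and was not tested. Neutrophil genes held 1753 to 4784 and 2293 to 9627 (2 of 11 higher, 0 lower), and erythroid genes 444334 to 564840 and 221310 to 488846 (0 of 12 higher, 5 lower). T cell and thymocyte genes held 206174 to 226302 and 207690 to 243181 (2 of 13 higher, 1 lower) and were abundant in every library, as the T-ALL label implies. Fits with B cell or macrophage marker levels as a covariate are given below. The part of these other cells in the results was not otherwise tested.

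The promoters of the members are shown because the factors known for this gene class bind short motifs close to the start. RefSeq windows of 300 bases (250 before to 50 after the start, GRCm38.p6) were found for 69 of the 78 members. Both strands were searched for 4 motifs, and no match overlapped a match of another motif. The NRF1 motif (GCGCA and GCGC parted by any 1 base) was in the windows of 13 members (18.8%, against 11.2% of 10537 tested genes with a window). The ETS motif CCGGAAG was in those of 26 members (37.7%, against 19.6%), and the YY1 motif AAGATGGC in those of 12 (17.4%, against 5.16%). The E-box CACGTG, which MYC and other factors bind, was in those of 5 (7.25%, against 11.4%). By window, counting alternative starts, the shares were 17.3%, 34.7%, 16% and 9.33% of 75 member windows, against 4.6%, 8.86%, 2.75% and 7.15% of all 32851. None of the 4 motifs was in the windows of 24 members (34.8%, against 61.2%). A match describes letters only, and binding was not measured.

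A few members show the range of these promoters. The 250 bases before their starts follow, 5′ to 3′ on the gene's strand, with motif matches in capitals. Mrpl52 had an ETS match, Mrpl36 an E-box and a YY1 match, Mrpl12 an NRF1 match, Mrpl3 an ETS match and Mrpl45 NRF1 matches at separate places.
Mrpl52: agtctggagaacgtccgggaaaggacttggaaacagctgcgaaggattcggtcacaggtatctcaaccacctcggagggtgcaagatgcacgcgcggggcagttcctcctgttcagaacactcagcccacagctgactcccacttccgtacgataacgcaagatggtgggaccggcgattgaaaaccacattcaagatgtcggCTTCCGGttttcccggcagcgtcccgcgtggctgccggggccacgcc
Mrpl36: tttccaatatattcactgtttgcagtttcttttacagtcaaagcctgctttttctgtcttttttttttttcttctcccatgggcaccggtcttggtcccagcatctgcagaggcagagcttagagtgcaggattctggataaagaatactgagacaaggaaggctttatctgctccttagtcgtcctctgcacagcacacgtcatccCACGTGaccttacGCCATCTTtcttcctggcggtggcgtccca
Mrpl12: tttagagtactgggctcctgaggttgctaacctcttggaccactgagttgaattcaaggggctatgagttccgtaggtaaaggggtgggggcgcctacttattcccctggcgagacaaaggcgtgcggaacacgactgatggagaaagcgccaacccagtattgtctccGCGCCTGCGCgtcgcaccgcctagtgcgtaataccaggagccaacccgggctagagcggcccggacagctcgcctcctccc
Mrpl3: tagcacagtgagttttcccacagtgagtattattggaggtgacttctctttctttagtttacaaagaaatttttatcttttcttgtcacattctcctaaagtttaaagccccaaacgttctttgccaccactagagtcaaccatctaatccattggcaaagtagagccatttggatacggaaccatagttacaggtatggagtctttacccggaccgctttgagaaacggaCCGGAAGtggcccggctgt
Mrpl45: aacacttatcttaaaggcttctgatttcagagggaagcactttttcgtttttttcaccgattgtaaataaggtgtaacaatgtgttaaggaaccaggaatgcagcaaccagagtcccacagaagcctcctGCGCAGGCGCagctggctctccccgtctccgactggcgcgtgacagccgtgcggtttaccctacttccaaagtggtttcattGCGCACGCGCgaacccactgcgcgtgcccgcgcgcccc
They lie at chr14:54426659-54426908, chr13:73330759-73331008, chr11:120484387-120484636, chr9:105053018-105053267 and chr11:97315466-97315715, all on the plus strand. Among them Mrpl52 had the largest called difference of all members (0.57) and Mrpl3 the lowest difference (-0.00295), and both had an ETS match. Mrps24, with the largest difference (1.09, not called), had a YY1 match in its window and no ETS match. Over all members with a window, the median log2 difference was 0.32 with the ETS motif and 0.24 without, 0.24 and 0.28 for NRF1, 0.22 and 0.28 for YY1, and 0.31 and 0.27 for the E-box. By motif, 20 of 26 members with the ETS letters were called higher and 32 of 43 without, 11 of 13 and 41 of 56 for NRF1, 6 of 12 and 46 of 57 for YY1, and 4 of 5 and 48 of 64 for the E-box. These are descriptions, with no test.

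In the deposited normalized counts, most mitoribosome genes were higher in the Sirt1 deleted spleens, whose libraries also differed from the controls in length slope. Of the 78 genes, 59 rose, 0 fell and 19 did not pass, by limma with Benjamini-Hochberg adjustment over all 13567 genes tested (adjusted p of 0.05). Over all tested genes 14.5% were called higher and 17.5% lower. Corrected for length and GC content, 28 members rose and 0 fell (median 0.12), and 23 of the 59 were still called. With the length slopes as a covariate, and without the 3 libraries of steepest slope, limma called 0 members (0 and 46 at an unadjusted p under 0.05, medians 0.014 and 0.18), and 40 and 59 of the 59 kept a positive sign. The member count fell to 39 without control library 1 and 37 without control library 2. No member with a negative difference had an unadjusted p under 0.05 (0 of 78). The median log2 difference of the members was 0.29, a fold of 1.23, against 0.00097 over all tested genes. Differences were positive for 77 members, and the groups did not overlap, with every Sirt1 deleted library above every control, for 44. Such a complete separation was seen for 8.28% of all tested genes, and the reverse order for 8.18% (0 members). Robust limma, TMM factors and quantile normalization gave 59, 61 and 67 members higher and 0 lower. With B cell or macrophage marker levels as a covariate, limma called 0 members in either direction (38 and 49 at an unadjusted p under 0.05, medians 0.24 and 0.32), and 1 and 0 of all genes.

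**Figure D1:**
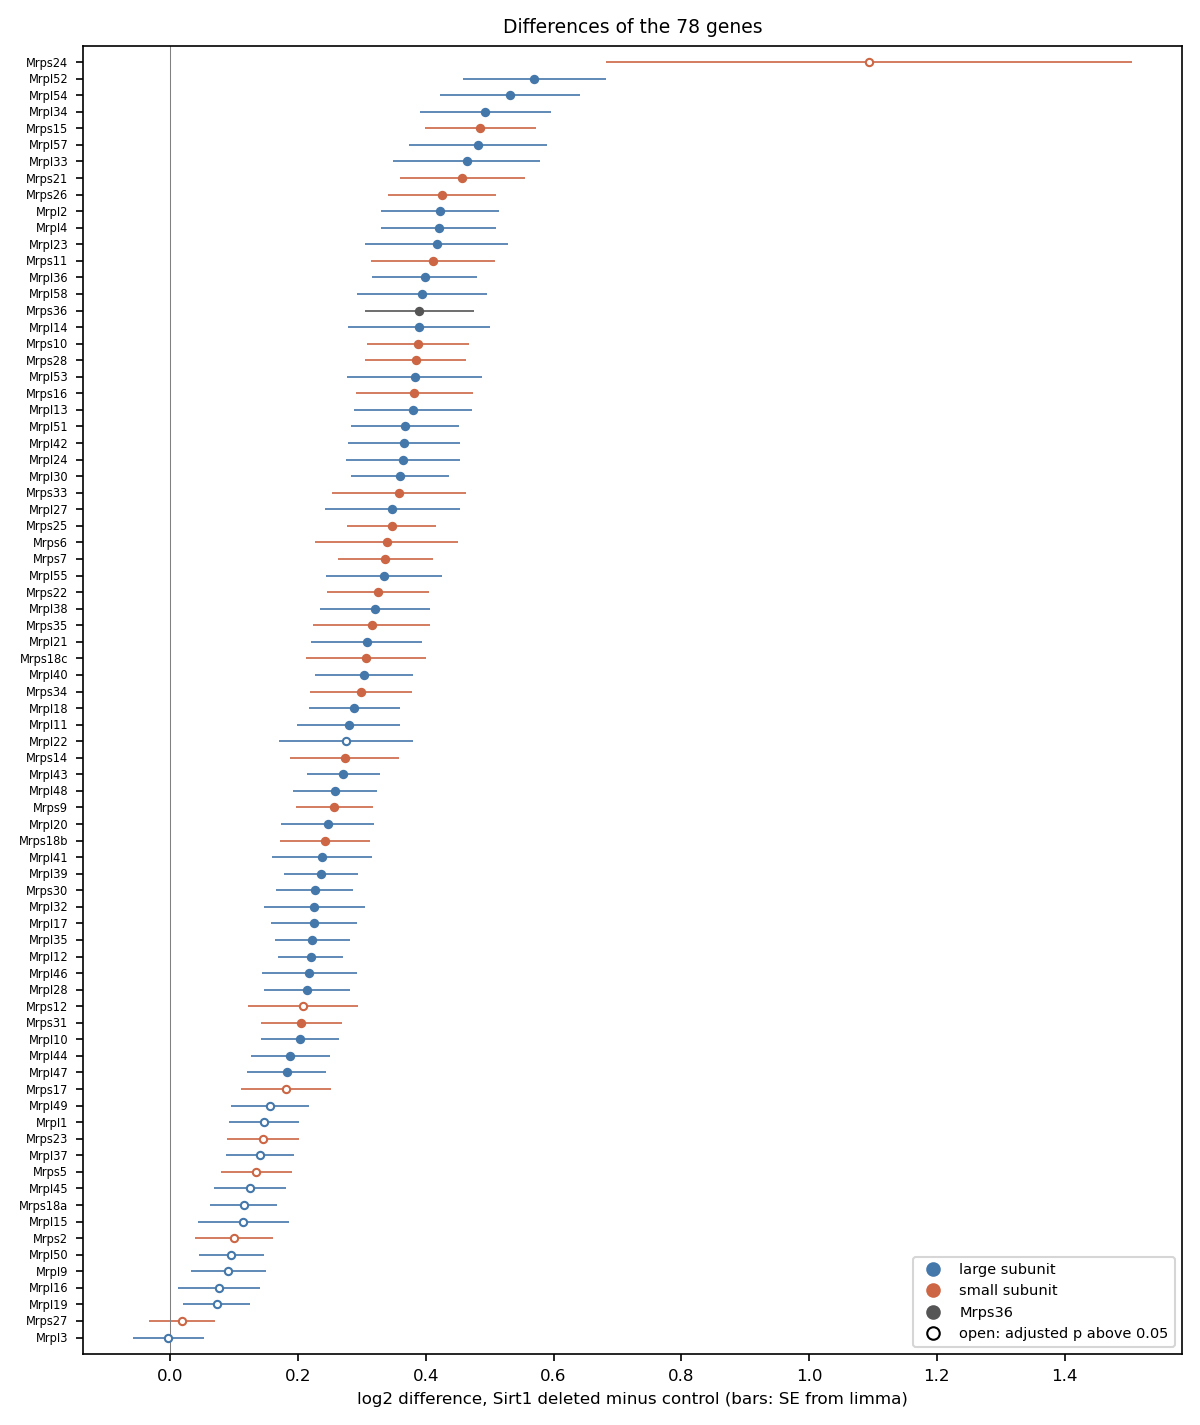
Log2 difference (Sirt1 deleted minus control, horizontal axis) of each of the 78 genes (rows), with the standard error from limma as bars. Filled points passed an adjusted p of 0.05, and all 59 of them lie to the right of 0, with Mrps24 at the top (1.09, wide error, not called) and Mrpl3 at the bottom (-0.0030).

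The members differed together within each library. Summed over the members, control libraries 1 to 5 held 119146, 118592, 123534, 125780 and 135620 normalized counts, and Sirt1 deleted libraries 1 to 5 held 141532, 153736, 150350, 140771 and 172298. The groups did not overlap, control library 5 was the highest control, and Sirt1 deleted library 5 stood above all others. The sums came to 0.3461% to 0.4004% of all normalized counts in controls and 0.413% to 0.495% after deletion, a ratio of mean sums of 1.22. For 63 of the 78 genes the highest value was in Sirt1 deleted library 5, which also had the steepest length slope (-0.201), and for 31 the lowest was in control library 1. Small and large subunit sums kept nearly the same ratio, 0.428 ± 0.0049 in controls and 0.435 ± 0.0074 after deletion (SD, n = 5). Within groups, deviations of the members had a mean pairwise Pearson r of 0.55 over 10 libraries, against 0.0022 for all tested genes. The libraries share their trends on length and GC content. After correction for both the member value was 0.099, against 0.0074 for 13304 genes. No set of equally short genes was compared.

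**Figure D2:**
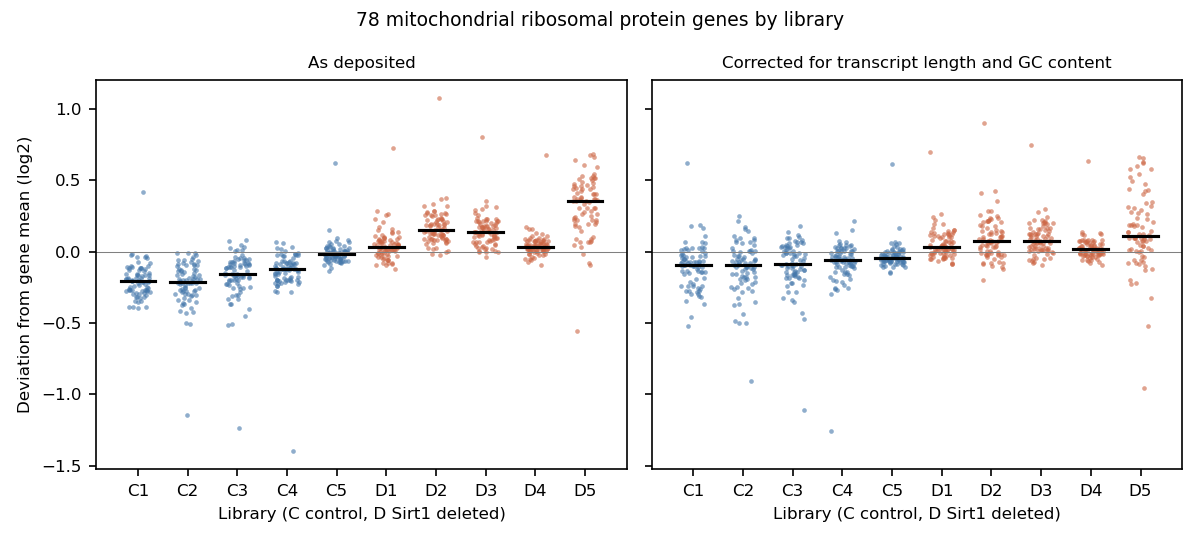
Each point is 1 of the 78 genes in 1 library (horizontal axis, C control, D Sirt1 deleted, numbered as in the text), as log2 deviation from the gene's mean over 10 libraries (vertical axis), with black bars at the library median. As deposited, medians ran from -0.21 in control library 2 to 0.36 in Sirt1 deleted library 5, and corrected for length and GC content from -0.093 to 0.11, with every control median below every Sirt1 deleted one in both panels.

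The large subunit joins amino acids and holds the exit tunnel of the new chain. Of its 51 genes 39 rose, 0 fell and 12 did not pass, with a median log2 difference of 0.27 (17 rose after correction for length and GC content, median 0.11). It includes Mrps30 (0.23, adjusted p = 0.0161) and Mrps18a, which keep small subunit symbols although their proteins sit in the large subunit. The L12 stalk, which recruits translation factors, rose in 5 of 5 genes as deposited and in 1 of 5 after correction (median 0.078). Over all tested genes 14.5% were called higher, and 8.31% of 13304 after correction. Among all tested genes with transcripts over 1000 to 2000 bases, 32.3% were called higher as deposited. Mrpl12, whose protein forms the stalk and also binds the mitochondrial RNA polymerase, was the most abundant member. It held 4112, 4266, 4355, 4423 and 4460.4 normalized counts in control libraries 1 to 5, and 5121, 5101, 4794, 4729 and 5449 in Sirt1 deleted libraries 1 to 5. All Sirt1 deleted values lay above all controls, by a log2 difference of 0.22 (SE 0.0515, adjusted p = 0.011; chromosome 11, 120484613 to 120489065, plus strand, GRCm38). After correction it was at -0.0260 and not called.

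Mrpl54, another stalk protein, had 1201, 1169.7, 1326, 1326 and 1537 normalized counts in control libraries 1 to 5, and 1663, 1851, 1819, 1697 and 2525 in Sirt1 deleted libraries 1 to 5. The groups did not overlap, and Sirt1 deleted library 5 stood well above the rest (0.53, adjusted p = 0.00855; chromosome 10, 81264713 to 81266934, minus strand). The remaining stalk genes were Mrpl10 (0.20), Mrpl11 (0.28) and Mrpl53 (0.38), all called. Mrpl1, of the opposite L1 stalk that guides spent tRNA out, missed the threshold at 0.15 (adjusted p = 0.057). After correction it was at 0.26 and called higher (adjusted p = 0.0149).

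All 9 genes of the central protuberance, the crown of the large subunit, rose as deposited, with a median of 0.32. Their median transcript length was 1219 bases. Of all tested genes 14.5% were called higher, and of those over 1000 to 2000 bases 32.3%. After correction 2 of 9 rose (median 0.077), and Mrpl46 was at -0.0149. Mrpl52, found in mitoribosomes and not in bacteria, led them and had the highest level per length of all members. It had 1627, 1433, 1427, 1740.2 and 2273 normalized counts in control libraries 1 to 5, and 2435, 2569.8, 2396, 2276 and 2784 in Sirt1 deleted libraries 1 to 5. Control library 5 came within a few counts of the lowest Sirt1 deleted library without crossing it, and the difference was 0.57 (SE 0.112, adjusted p = 0.00828; chromosome 14, 54426909 to 54429756, plus strand). Mrpl58, also known as ICT1, is a release factor that became a fixed part of the ribosome and frees chains from stalled ribosomes. Its values were 1906, 1861, 2167, 1975 and 2291 normalized counts in control libraries 1 to 5, and 2464, 2716, 2376, 2440.2 and 3513 in Sirt1 deleted libraries 1 to 5. The groups did not overlap and library 5 of the deleted group was again the highest (0.39, adjusted p = 0.0144). Mrpl27 (0.35), Mrpl55 (0.33), Mrpl38 (0.32), Mrpl40 (0.30), Mrpl18 (0.29), Mrpl48 (0.26) and Mrpl46 (0.22) made up the rest.

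At the exit tunnel 5 of 7 genes rose, with a median of 0.23 (3 of 7 after correction, median 0.14). The shares over all tested genes were 14.5% and, after correction, 8.31%. Mrpl45, which ties the ribosome to the inner membrane, did not pass. It held 2062, 2029, 2284, 2028 and 2183 normalized counts in control libraries 1 to 5, and 2179, 2358, 2263, 2242 and 2497 in Sirt1 deleted libraries 1 to 5, and the groups overlapped (0.12, adjusted p = 0.104). Mrpl44, related to RNase III enzymes and mutated in inherited cardiomyopathy, had 1112, 1076, 1129.9, 1163 and 1149.6 normalized counts in control libraries 1 to 5, and 1192, 1269, 1262, 1249 and 1458 in Sirt1 deleted libraries 1 to 5. Every Sirt1 deleted value lay above the controls, by 0.19 (adjusted p = 0.0349), and library 5 was the highest. Mrpl23 (0.42), Mrpl24 (0.36), Mrpl17 (0.23) and Mrpl47 (0.18) were called, and Mrpl22 (0.28, adjusted p = 0.0611) was not.

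Among the other proteins with bacterial relatives, 13 of 18 core genes rose (median 0.28), and 6 of 18 after correction (median 0.12). Beside them, 14.5% of all tested genes were called higher, and 8.31% after correction. Mrpl36, a short protein of the large subunit, had 1657, 1456, 1554, 1760.2 and 1969.9 normalized counts in control libraries 1 to 5, and 2159.9, 2253, 2187, 1985 and 2454 in Sirt1 deleted libraries 1 to 5. Groups did not overlap, though the highest control and the lowest Sirt1 deleted library were close (0.40, SE 0.0821, adjusted p = 0.00855; chromosome 13, 73328513 to 73332178, plus strand). Mrpl20, which binds the large ribosomal RNA and had one of the highest levels per length, held 2318, 2369.7, 2534, 2607 and 2748 normalized counts in control libraries 1 to 5, and 2789, 2903, 2968, 2772 and 3517 in Sirt1 deleted libraries 1 to 5. It rose by 0.25 (adjusted p = 0.0237) with no overlap, but was at -0.0348 after correction and at -0.0509 with the length slope as a covariate, not called in either. Mrpl34 (0.49), Mrpl33 (0.46), Mrpl2 (0.42) and Mrpl4 (0.42) also rose.

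Mrpl3, a core protein near the catalytic centre that is mutated in some mitochondrial disease, was the 1 member with a negative difference. It had 2217, 2126, 2253, 2286 and 2318 normalized counts in control libraries 1 to 5, and 2117, 2276, 2464, 2244 and 2092 in Sirt1 deleted libraries 1 to 5. The ranges overlapped fully, and the log2 difference was -0.00295 (SE 0.0559, adjusted p = 0.973; chromosome 9, 105053239 to 105079888, plus strand). After correction for length and GC content it was at 0.13 (adjusted p = 0.0828). A value of this kind does not show that the groups are alike. Mrpl9 (0.0905), Mrpl15 (0.11), Mrpl16 (0.0760) and Mrpl19 (0.0729) were the other core genes that did not pass as deposited. After correction Mrpl15 was at 0.27 and called higher (adjusted p = 0.0237).

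Proteins found in mitoribosomes but not in bacterial ones numbered 19 in the large subunit outside Mrpl58 and Mrpl55, whose class is unsettled, and 15 rose (median 0.26), while 22 of 30 with bacterial relatives rose (median 0.26). The share called higher over all tested genes was 14.5%. Mrpl42, high in level per length, had 1936, 2016, 2355, 2144 and 2399 normalized counts in control libraries 1 to 5, and 2621, 2811, 2776, 2429 and 3382 in Sirt1 deleted libraries 1 to 5. Groups did not overlap (0.37, adjusted p = 0.012). Mrpl57 (0.48), Mrpl51 (0.37), Mrpl43 (0.27), Mrpl41 (0.24) and Mrpl39 (0.24) were called, while Mrpl37 (0.14), Mrpl49 (0.16) and Mrpl50 (0.10) were not.

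The small subunit binds messenger RNA and reads codons. Of its 26 genes 19 rose, 0 fell and 7 did not pass, with a median log2 difference of 0.32 (10 rose after correction, median 0.16). Whether this differs from the large subunit was not tested. In the body 12 of 17 genes rose, and 6 of 17 after correction. Over all tested genes 14.5% were called higher, and 8.31% of 13304 after correction. Of all tested genes over 1000 to 2000 bases, 32.3% were called higher as deposited. Mrps15, whose bacterial relative binds the small ribosomal RNA early in assembly, had the smallest p of all members. Its values were 1406, 1338, 1317, 1475 and 1645 normalized counts in control libraries 1 to 5, and 2066, 2043, 1971, 1669.7 and 2329 in Sirt1 deleted libraries 1 to 5. No Sirt1 deleted library fell below a control, and the difference was 0.49 (SE 0.087, adjusted p = 0.00797; chromosome 4, 126046925 to 126055532, plus strand).

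Mrps26, a mitochondria-specific protein, had 1382, 1259, 1203, 1379 and 1685 normalized counts in control libraries 1 to 5, and 1840.0, 1931, 1787, 1700.3 and 1968 in Sirt1 deleted libraries 1 to 5. The lowest Sirt1 deleted library lay just above the highest control (0.43, adjusted p = 0.00844; chromosome 2, 130563742 to 130568695, plus strand). Mrps25, also without a bacterial relative, had 2437, 2497, 2553, 2834 and 3032 normalized counts in control libraries 1 to 5, and 3153, 3526, 3510.5, 3155 and 3605 in Sirt1 deleted libraries 1 to 5. These did not overlap either (0.35, adjusted p = 0.00855; chromosome 6, 92169525 to 92184033, minus strand). Mrps28 held 1086, 1024, 1001, 1078 and 1235 normalized counts in control libraries 1 to 5, and 1257, 1542, 1353, 1345 and 1592 in Sirt1 deleted libraries 1 to 5. Its groups were separate by a narrow gap (0.38, adjusted p = 0.00855; chromosome 3, 8802146 to 8923918, minus strand).

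Genes whose human counterparts are mutated in combined respiratory chain defects include Mrps16, Mrps22 and Mrps34. Mrps16, of bacterial origin, had 1224, 1315, 1261, 1216 and 1466 normalized counts in control libraries 1 to 5, and 1545, 1719, 1545, 1555 and 2132 in Sirt1 deleted libraries 1 to 5. Groups did not overlap and library 5 of the deleted group led (0.38, adjusted p = 0.0118). Mrps22 held 926, 862, 924, 958 and 1072 normalized counts in control libraries 1 to 5, and 1125, 1269.6, 1296, 1022 and 1237 in Sirt1 deleted libraries 1 to 5. Here Sirt1 deleted library 4 fell below control library 5, and the gene rose by 0.33 (adjusted p = 0.0125). Mrps34 had 1495, 1457, 1324, 1529 and 1746 normalized counts in control libraries 1 to 5, and 1781, 1868, 1791, 1705 and 2132 in Sirt1 deleted libraries 1 to 5. Its groups overlapped in the same pair of libraries (0.30, adjusted p = 0.0161). After correction it was at -0.0906 and not called. The gene overlaps Nme3 on the same strand, so their reads are uncertain.

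Mrps12 lies at the decoding centre, where its bacterial relative governs accuracy and streptomycin response. It had 961, 859, 795, 972 and 1012 normalized counts in control libraries 1 to 5, and 1184, 1137, 985, 1077 and 930.4 in Sirt1 deleted libraries 1 to 5. The ranges overlapped, with Sirt1 deleted library 5 below 3 of the controls, and the gene did not pass (0.21, adjusted p = 0.0779). Mrps27, an RNA-binding protein of the body, was at 0.0186 (adjusted p = 0.804), the smallest difference in the small subunit. Mrps5 (0.13), Mrps17 (0.18) and Mrps23 (0.14) also did not pass, nor did Mrps2 (0.10). Mrps21 (0.46), Mrps11 (0.41) and Mrps6 (0.34) rose, and Mrps6 shares its span with Slc5a3 on the same strand.

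In the head of the small subunit 7 of 8 genes rose, and 4 of 8 after correction, beside 14.5% and 8.31% over all tested genes. Mrps10 had 816, 839, 827, 859 and 968 normalized counts in control libraries 1 to 5, and 1010.3, 1097, 1210.2, 1036 and 1302 in Sirt1 deleted libraries 1 to 5. Every Sirt1 deleted library was above every control (0.39, SE 0.08, adjusted p = 0.00855; chromosome 17, 47368887 to 47381417, plus strand). Mrps33 (0.36), Mrps7 (0.34), Mrps35 (0.32), Mrps14 (0.27), Mrps9 (0.26) and Mrps31 (0.21) were the other called genes.

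Mrps24, a head protein whose bacterial relative lines the entry of the message, was unlike all others and is described because its values stood out. It had 976, 329.7, 310.1, 276 and 1125 normalized counts in control libraries 1 to 5, and 1209, 1544, 1277, 1169 and 496 in Sirt1 deleted libraries 1 to 5. Control libraries 2, 3 and 4 and Sirt1 deleted library 5 were low, the other 6 were high, and the groups overlapped (1.09, SE 0.411, adjusted p = 0.0573; chromosome 11, 5703983 to 5715680, minus strand). Over all 10 libraries no other member had a standard error as large. Urgcp, a cell cycle gene that overlaps it on the same strand by 2264 bases, held 1689.8, 1613, 1661, 1546 and 1618 in the controls and 1639, 1630.4, 1506, 1639 and 1528 after deletion, without this split. Reads of overlapping genes are uncertain, and the part of this in the split was not tested.

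**Figure D3:**
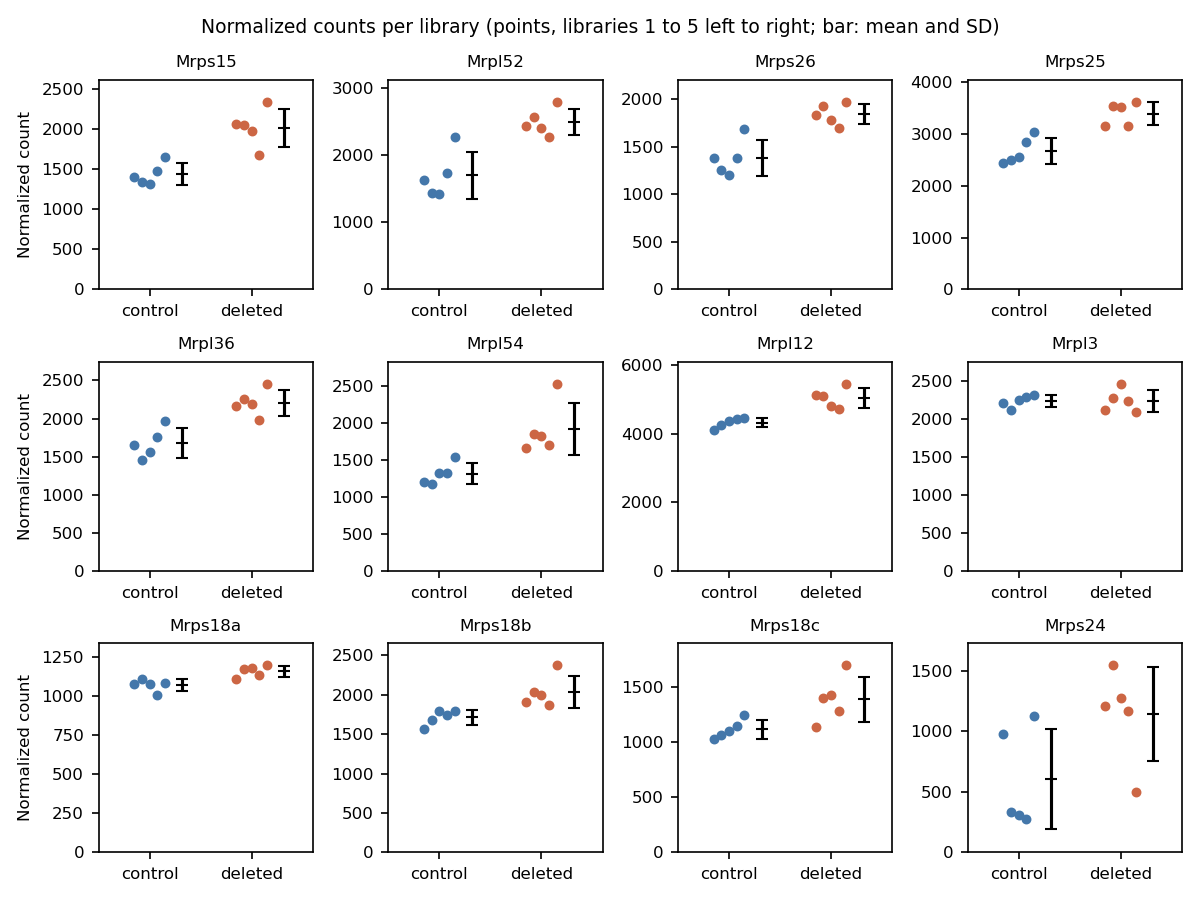
Normalized counts per library (vertical axes, from 0) for 12 of the genes, with libraries 1 to 5 of each group from left to right and the mean and SD (n = 5) as bars. In the top row all Sirt1 deleted points lie above all controls; Mrpl3 shows full overlap, and Mrps24 splits into low and high libraries within both groups.

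Mrps18a, Mrps18b and Mrps18c are 3 versions of 1 bacterial protein that take different places in the mitoribosome. Mrps18c takes the bacterial place in the body, Mrps18b another site of the small subunit, and Mrps18a a site in the large subunit. Mrps18b had 1569, 1677, 1793, 1739 and 1798 normalized counts in control libraries 1 to 5, and 1904, 2029, 1993, 1872 and 2370.1 in Sirt1 deleted libraries 1 to 5. It rose with no overlap (0.24, adjusted p = 0.0217). Mrps18c had 1023, 1062, 1099, 1144 and 1243 normalized counts in control libraries 1 to 5, and 1139, 1395, 1427, 1280.4 and 1693 in Sirt1 deleted libraries 1 to 5. It rose by 0.31 (adjusted p = 0.0278), although Sirt1 deleted library 1 lay below control libraries 4 and 5. Mrps18a held 1079, 1107, 1074, 1007 and 1081 normalized counts in control libraries 1 to 5, and 1106, 1175, 1177, 1136 and 1196 in Sirt1 deleted libraries 1 to 5. Sirt1 deleted library 1 lay just below control library 2, the spread was the narrowest of the 3, and the gene did not pass (0.11, adjusted p = 0.109). Whether the 3 differ from each other in their response was not tested.

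Mrps36 carries a ribosomal name but its protein, KGD4, is now known to join subunits of the oxoglutarate dehydrogenase complex of the citric acid cycle. It had 997, 1009, 1078, 1139 and 1213 normalized counts in control libraries 1 to 5, and 1289.9, 1489, 1456, 1243 and 1666 in Sirt1 deleted libraries 1 to 5. The groups did not overlap, and it rose by 0.39 (SE 0.0857, adjusted p = 0.00936; chromosome 13, 100735955 to 100744659, minus strand), within the range of the ribosomal members.

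Levels of the messages differed widely between members. On the scale of mean normalized counts per 1000 bases of the longest coding transcript, the members ran from 263 for Mrps35 and 267 for Mrpl17 to 3603 for Mrpl20, 3734 for Mrpl42 and 4527 for Mrpl52. The median was 1221 in the large and 928 in the small subunit. This scale leans on the transcript chosen. Mrpl17 is listed with a longest transcript of 7300 bases, but per 1000 bases of its coding transcript of median length it stood at 1894. Across the 78 genes, the level per length had a Spearman rho of -0.78 with the length itself, which enters both. Between mean level and log2 difference rho was -0.16.

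The differences followed transcript length among the members as in the whole table. The median length of the members was 1328 bases, against 3001 for tested genes with a length, and longer members differed less, with a Spearman rho of -0.50 between length and log2 difference over the 78 genes, which are not independent replicates. Of 24 members with transcripts up to 1000 bases 20 rose, with a median of 0.38; of all 916 tested genes of such length 47.4% were called higher, with a median of 0.32. Between 1000 and 2000 bases 23 of 29 members rose (median 0.27), against 32.3% of 2756 genes (median 0.18). Above 2000 bases 16 of 25 members rose (median 0.23), against 6.43% of 9632 genes (median -0.083). Mrpl20 and Mrps34 are short, and Mrps25 (6073 bases), Mrpl19 (5000) and Mrpl17 are long. These shares describe the table, and no test compares them.

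With length and GC content corrected in every library, the 28 members that rose stood beside 8.31% of 13304 genes called higher and the 0 that fell beside 6.07% called lower. The corrected difference was positive for 64 members, among them 52 of the 59 called before. Some members were called only after correction, among them Mrpl1 (0.26) and Mrpl15 (0.27). Corrected values were 0.64 for Mrps25, 0.56 for Mrps26, 0.55 for Mrpl57, 0.40 for Mrps16 and 0.40 for Mrpl58, all called. They were 0.20 for Mrpl52, 0.11 for Mrpl54, 0.15 for Mrpl36 and 0.0833 for Mrps28, none called, and -0.0260 for Mrpl12 and -0.0906 for Mrps34, both with the sign turned. Mrps15 (0.21) and Mrps10 (0.17) were still called. Of the 28 calls 21 fell on the 25 genes with transcripts over 2000 bases, and the corrected difference rose with length (rho 0.52), the reverse of the trend before. Where the coding transcript of median length was used in place of the longest, 38 members rose, 0 fell and the median was 0.17.

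**Figure D4:**
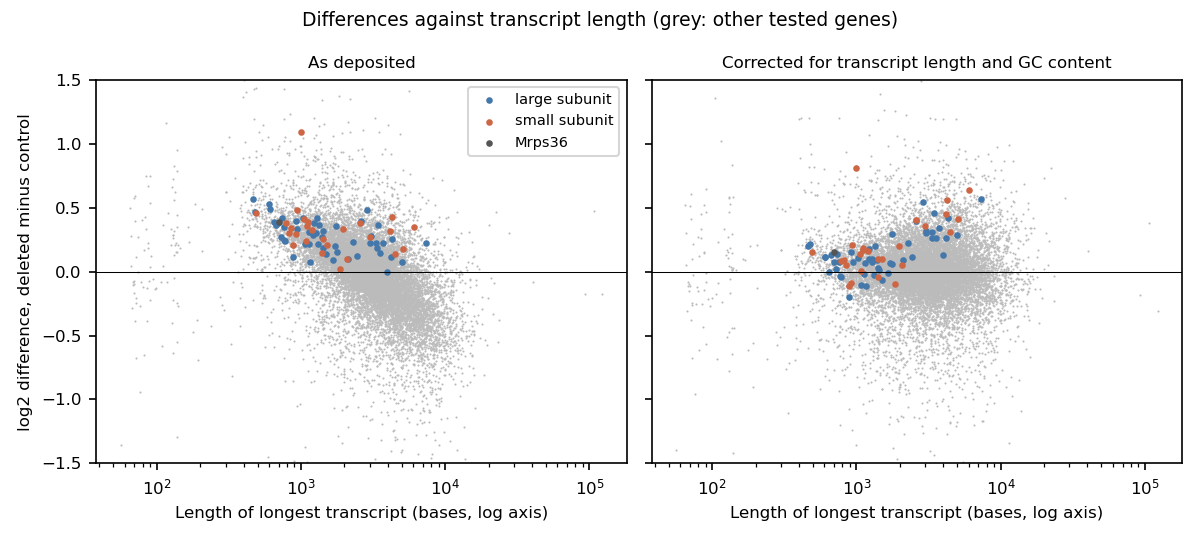
Log2 difference (vertical axis) against the length of the longest transcript (horizontal log axis) for the members (blue large subunit, orange small subunit) and all other tested genes with a length (grey; genes beyond the vertical limits are not drawn). As deposited the cloud falls from left to right and members have a median of 0.29; corrected, the cloud is level, members have a median of 0.12, and those above 2000 bases lie highest with a median of 0.32.

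Many members lie head to head with a neighbour, and 37 had an annotated gene that starts within 1000 bases on the opposite strand. For 34 the partner was tested, among them Mrpl46 and Mrps11, which are each other's partner (starts 412 bases apart). Of the 34 partners 8 rose, Mrpl46 and Mrps11 among them, 3 fell and 23 did not pass. Over all tested genes 14.5% were called higher and 17.5% lower. The median log2 difference was 0.10 for the partners and 0.30 for the paired members. Partners had a median transcript length of 2481 bases. The pairs in which the less abundant gene had the highest level were Mrpl18 with the chaperonin gene Tcp1 (0.29 and 0.069), Mrpl51 with the condensin gene Ncapd2 (0.37 and -0.21), Mrps7 with Gga3 (0.34 and 0.0063), which encodes a Golgi adaptor, and Mrpl36 with Ndufs6 (0.40 and 0.31). Ndufs6 encodes a subunit of respiratory complex I, and its start lies 29 bases from the earliest annotated start of Mrpl36. The Mrpl36 window printed above belongs to a start further downstream. Ndufs6 had 1590.4, 1699, 1837, 1691 and 2042 normalized counts in the controls and 2062, 2204, 2187, 1955 and 2629.7 after deletion, which overlapped at 1 library of each group (adjusted p = 0.0174). Mrpl49 (0.16, not called) starts 59 bases from Fau (0.32, adjusted p = 0.0135), a cytosolic ribosomal protein gene, a pair chosen after its values were seen. Corrected for length and GC content, 4 partners rose and 0 fell (median 0.078), beside 8.31% and 6.07% of 13304 genes. Ndufs6 (0.0677) and Fau (-0.0864) were then not called. Overlapping 5′ ends make some reads of these pairs uncertain where strand was not used in counting, which is not stated.

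**Figure D5:**
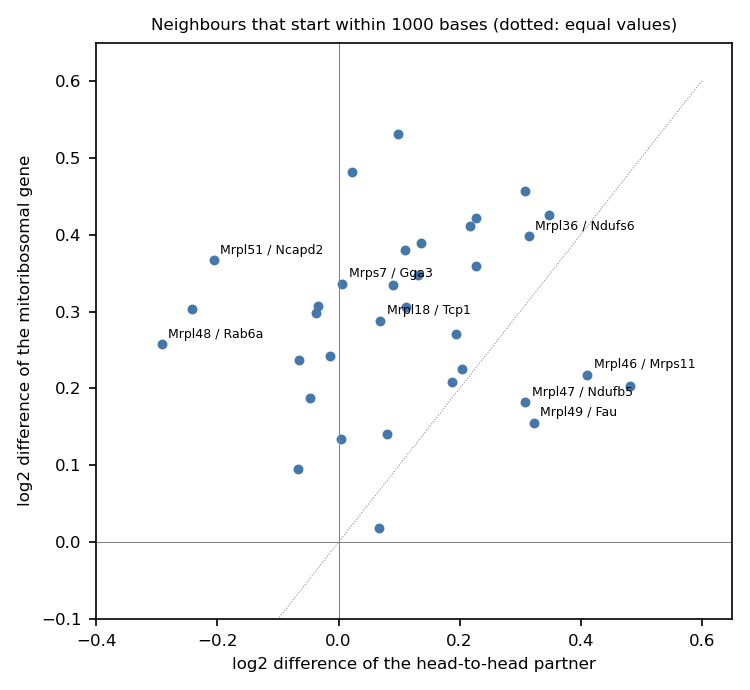
Log2 difference of each mitoribosomal gene (vertical axis) against that of its head-to-head partner (horizontal axis) for the 34 pairs with a tested partner, with equal values on the dotted line. Most points lie left of that line; Ncapd2, Rab6a and Hira are lower while Mrpl51, Mrpl48 and Mrpl40 are higher.

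Mitoribosomal proteins with other names were read beside the members. Among 5 tested, 3 rose and 0 fell (median 0.24), where 14.5% of all tested genes were called higher and 17.5% lower. After correction for length and GC content 3 rose and 0 fell, beside 8.31% and 6.07% of 13304 genes. Gadd45gip1, a large subunit protein also called CRIF1, had 2077, 1791, 1565, 1900.4 and 2390.1 normalized counts in the controls and 2524, 2834, 2734, 2428 and 3236 after deletion (0.51, adjusted p = 0.00863). Aurkaip1, of the small subunit, had 2054, 1836, 2149, 1995 and 2464 and 2629, 3063, 2709, 2555 and 3736 (0.48, adjusted p = 0.00928). Neither overlapped between the groups. Dap3 was at 0.24 and called, and Ptcd3 (0.049) and Chchd1 (0.16) did not pass.

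Of 22 tested genes of mitoribosome assembly and ribosomal RNA modification, 4 rose, 0 fell and 18 did not pass, with a median of 0.12, where 14.5% of all tested genes were called higher and 17.5% lower. After correction 1 rose and 0 fell (median 0.027). The smallest p were those of Malsu1, an assembly factor of the large subunit (0.39, adjusted p = 0.0116), and Rbfa, which acts on the small subunit (0.21, adjusted p = 0.017). Rbfa was at -0.0823 after correction and at -0.0195 with the median-length transcript, and was called in neither. Of 16 translation factors and helpers 4 rose, 2 fell and 10 did not pass (median 0.073), beside the same shares, and after correction 3 rose and 2 fell (median 0.080). Pdf, which trims the formyl group from new chains, rose by 0.31 (adjusted p = 0.0105), as did Slirp, a stabiliser of mitochondrial messages, by 0.38 (adjusted p = 0.0142). Taco1, a translational activator of COX1, fell by 0.39 on the log2 scale (adjusted p = 0.0164). After correction Slirp and Taco1 were still called and Pdf (0.0674) was not.

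Of 16 genes of mitochondrial transcription and its nuclear regulators, 2 rose, 1 fell and 13 did not pass (median 0.042), again beside 14.5% and 17.5% of all tested genes. After correction 3 rose and 0 fell (median 0.095). Gabpa, which encodes a factor of the ETS family, held 3482, 3538, 3219, 3394 and 3002 normalized counts in the controls and 2668, 2433, 2789, 2954 and 2122 after deletion. Every Sirt1 deleted library was below every control (-0.37, adjusted p = 0.0105), and after correction the gene was at -0.12 and not called. Esrra, a nuclear receptor of mitochondrial genes, rose by 0.30 (adjusted p = 0.0134), and was at 0.085 and not called after correction. Nrf1 was at -0.16 (adjusted p = 0.0617), Yy1 at -0.061 (adjusted p = 0.436) and Myc at 0.20 (adjusted p = 0.0535), none called. After correction Yy1 was at 0.19 and called higher (adjusted p = 0.0193), while Nrf1 (-0.11) and Myc (0.14) were not called.

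Cytosolic ribosomal protein genes, the nearest group by function, were set beside the members by symbol (Rpl or Rps with digits). Of 74 tested 66 rose and 0 fell (median 0.36), where 14.5% of all tested genes were called higher and 17.5% lower. After correction for length and GC content 18 rose and 0 fell (median 0.10), beside 8.31% and 6.07% of 13304 genes. The members had 59 of 78 and 28 of 78. Whether the 2 groups differ was not tested.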

How the data were processed

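Total RNA of 10 leukemic spleens was measured with strand-specific libraries. The submitters' processing notes name kallisto 0.44.0, DESeq and the build mm10. The authors deposited a normalized signal (normalized counts), 1 column per library, with 0 columns left out. Annotation, the summing of transcripts into genes and strand use in counting are not given in the sources used here. Values are not whole, and the lowest lie near multiples of 1 step only for part of the genes, so no count model was used. Column totals divided by that step (searched below 15, within 0.1) gave the approximate depths.

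Genes with 10 or more in at least 5 libraries were compared as log2(value + 1) by limma 3.58.1 (trend, R 4.3.3), control against Sirt1 deleted, with no covariate, and p-values were adjusted by Benjamini-Hochberg over all 13567. Fold changes are on that scale. Positions, transcript lengths and GC content come from GENCODE M21 (GRCm38), with 13304 tested genes matched. For the correction, each library's trends on log2 length and GC content (natural splines, 5 degrees of freedom) were taken away, real differences along length with them. Single values per library were tested by exact permutation. The members and gene lists were chosen with earlier results of these data known. Members given with all 10 values are the 8 members with the smallest p, the lower member, the 3 highest per length, and 14 chosen for their roles; Mrps24 was added after its values were seen, as was the pair of Mrpl49 and Fau. Of other genes, Urgcp, Ndufs6, Gadd45gip1, Aurkaip1 and Gabpa have all 10 values. From each mitochondrial list the 2 smallest p were named, with Dap3, Ptcd3, Chchd1, Taco1, Nrf1, Yy1 and Myc added; marker and cytosolic lists are given as counts. Head-to-head pairs named are the 4 with the most abundant lower partner. Alternatives were pseudocounts of 0.5 and 5, no filter, a minimum of 50, TMM factors from the published formula, array weights, robust limma, quantile normalization, covariates (markers of B cells or macrophages, length slopes), the correction, and leaving out libraries. The correction with the median-length transcript was added after seeing the data. The steps were tested on simulated data. Tables and figures used pandas 2.3.3, matplotlib 3.10.9 and numpy 2.4.6 under Python 3.11.15.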

Additional observations from a re-analysis of the deposited data

Results flagged for a closer look

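With 62 groups of 5 libraries checked, 4 values stood apart from their group (gap to the nearest library above Dixon's 95% critical value, which chance gives in about 1 of 20 groups). Sirt1 deleted library 5 was the high one in 3 of them. It held 2525 normalized counts of Mrpl54, where the next of its group had 1851. For Mrpl20 it held 3517, next to 2968, and for Mrpl44 it held 1458, next to 1269. The remaining value was Mrps10 in control library 5, with 968 against 859 in the next control. Without Sirt1 deleted library 5 the log2 differences were 0.43 for Mrpl54, 0.19 for Mrpl20 and 0.14 for Mrpl44.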

How the results depend on the processing

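The number of members called higher (59) lay between 57 and 67 over pseudocounts, filters, TMM factors, quantile normalization, robust limma and array weights, and the 0 called lower was 0 in each of the alternatives run. Leaving out 1 library in turn gave 37 to 63 members higher and medians of 0.24 to 0.33. Corrected for length and GC content, 28 members were higher (median 0.12), or 38 (median 0.17) with the median-length transcript. With the length slope as a covariate 0 were higher (median 0.014), and limma then called 0 of all 13567 genes. The count was also 0 with B cell markers as a covariate (median 0.24, 38 at an unadjusted p under 0.05, 1 call among all genes), with macrophage markers (median 0.32, 49 unadjusted, 0 among all genes), and without the 3 libraries of steepest slope, Sirt1 deleted 5 and controls 1 and 2 (median 0.18, 46 unadjusted, 2 among all genes). In these last settings all 59 kept a positive sign. The cause was not tested. Sirt1 kept its sign in all 24 alternatives and lost its call in 4. Its log2 difference ran from -0.50 to -0.0072 over them, with limma adjusted p up to 0.999. Signs turned for called genes with the correction (Mrpl12 -0.0260, Mrpl14 -0.00630, Mrpl20 -0.0348, Mrpl28 -0.11, Mrpl41 -0.0389, Mrpl46 -0.0149, Mrps34 -0.0906, Rbfa -0.0823 and Fau -0.0864), with the median-length transcript (Mrpl10 -0.0323, Mrpl28 -0.0462, Mrps34 -0.0176, Rbfa -0.0195 and Fau -0.00306) and with the slope covariate (Mrpl11 -0.0538, Mrpl14 -0.0808, Mrpl20 -0.0509, Mrpl21 -0.0459, Mrpl23 -0.10, Mrpl24 -0.0278, Mrpl27 -0.13, Mrpl32 -0.0529, Mrpl33 -0.00583, Mrpl41 -0.0836, Mrpl44 -0.00467, Mrpl53 -0.0420, Mrpl58 -0.0572, Mrps14 -0.0886, Mrps18b -0.0153, Mrps18c -0.0878, Mrps33 -0.0889, Mrps35 -0.0416, Mrps6 -0.0258, Ndufs6 -0.0323, Slirp -0.0309, Fau -0.0200 and Taco1 0.0356), none of them called in the new direction. No paired analysis was possible because the labels number the libraries 1 to 10 in 1 series and match no control with a Sirt1 deleted sample. Approximate depth was 21.2 M reads or more, and the part of counting error in the spread between libraries was not tested.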
